A study of Drosophila melanogaster with 3 samples.

Results

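The genes described here are the 113 genes that the deposited gene table of the unsexed library places on the Y chromosome of Drosophila melanogaster, out of 17785 genes listed in the libraries. They were matched by gene identifier, and all 113 are listed in each of the libraries. The series holds 3 droplet libraries of GFP-sorted embryonic cells, 1 for each group, so no group has a replicate. The male library came from Sxl-GFP, vas-GFP embryos at 5 to 8 h of development and was made with version 3 of the 10x Genomics 3' kit. The unsexed library came from vas-GFP embryos at 0 to 8 h and was made with version 2 of that kit. The female library came from Sxl-GFP, vas-GFP embryos at 5 to 8 h and was made with version 3. The vas-GFP reporter is carried in every group and marks germ cells, and Sxl-GFP is carried in the sexed groups alone. The unsexed group differs from each sexed group in stage range, genotype, sex and kit version at once, and the parts these play in a difference cannot be told apart.

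The Drosophila Y chromosome is almost entirely heterochromatic and is needed for male fertility but not for viability or for becoming male. Its single-copy protein-coding genes, among them the axonemal dynein heavy chains kl-2, kl-3 and kl-5, are best known from primary spermatocytes of the adult testis, where some are transcribed across huge introns full of repeats. The repeated Su(Ste) genes make precursors of Piwi-interacting RNAs that silence the Stellate genes. XX females carry no Y, so that Y-linked counts in the female library give the background measured in the same way. Germ cells of the early embryo, the pole cells, are held transcriptionally quiet at first by the protein of the pgc gene, whose maternal mRNA is lost as they mature.

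A cell was called a germ cell when it held unique molecular identifiers (UMIs, 1 per captured RNA molecule) of at least 3 of the 7 genes vas, nos, pgc, zpg, aub, CG17650 and CG14545. The rule took 4377 of 6329 male cells (69.2%), 3198 of 3657 unsexed cells (87.4%) and 1073 of 9430 female cells (11.4%). Median depth was 7718 UMIs per male germ cell, 16675.5 per unsexed germ cell and 18539 per female germ cell. The libraries held 47345241 UMIs in the male, 58378567 in the unsexed and 109431813 in the female matrix. In cells outside the rule, the male-enriched RNA lncRNA:roX2 stood at 60.1 CPM (UMIs scaled to a total of 1000000 per group of cells) in the male and 23.8 CPM in the female library, whereas Sxl stood at 219.9 CPM in the male and 415 CPM in the female library. The other male-enriched RNA, lncRNA:roX1, stood at 1204 CPM in the male and 1035 CPM in the female library, and msl-2 at 17.6 CPM in the male and 11.2 CPM in the female library. In germ cells lncRNA:roX1 was lower in the male library, at 104 CPM in male and 184 CPM in female germ cells. The male and female libraries shared 14 cell barcodes, and those cells held 2 Y-linked UMIs in the male and 0 in the female library. The unsexed library shared 1 barcode with the female and 0 with the male library.

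Y-linked transcripts were present in male germ cells, lower in unsexed germ cells and near 0 in female germ cells. Male germ cells held 705 Y-linked UMIs, which is 20.1 CPM with an exact 95% Poisson interval of 18.7 to 21.7. Unsexed germ cells held 383 UMIs, or 7.25 CPM (6.55 to 8.02). Female germ cells held 9 UMIs, or 0.437 CPM (0.200 to 0.829). The intervals of the 3 libraries do not overlap. The male level was 46.1 times the female level (24.1 to 101), the unsexed level was 16.6 times the female level (8.66 to 36.6), and the unsexed level was 0.360 of the male level (0.317 to 0.409). All intervals here cover counting error alone, since each group is a single library, which leaves no replicate check, and no test was run.

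**Figure D1:**
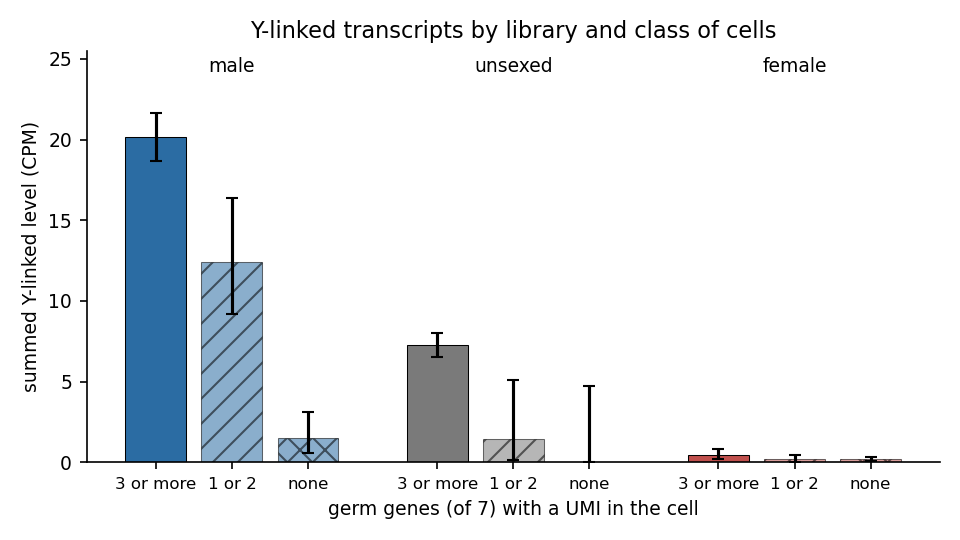
Bars give the summed level of the 113 Y-linked genes (CPM, linear axis) in cells with UMIs of 3 or more, of 1 or 2, and of none of the 7 germ genes, in the male, unsexed and female libraries, and error bars are exact 95% Poisson intervals. Male germ cells stand at 20.1 CPM, unsexed germ cells at 7.25 CPM and female germ cells at 0.437 CPM, and within the male and unsexed libraries the germ cells stand above both other classes.

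The signal was thin in every cell. At least 1 Y-linked UMI was seen in 636 of 4377 male germ cells (14.5%, exact Clopper-Pearson interval 13.5 to 15.6), in 324 of 3198 unsexed germ cells (10.1%, 9.11 to 11.2) and in 9 of 1073 female germ cells (0.839%, 0.384 to 1.59). Most positive cells held a single UMI, and 63 male, 44 unsexed and 0 female germ cells held 2 or more. The highest number in 1 cell was 3 in the male, 4 in the unsexed and 1 in the female library. Since depth differed between the libraries, each cell was also thinned to 2000 UMIs, which left out 5 male, 3 unsexed and 1 female germ cells. The share was then 4.09% in male, 1.22% in unsexed and 0.0933% in female germ cells. The order of the libraries was the same with and without thinning, and the female share is the background against which the others are read.

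Of the 113 genes, 63 had 0 UMIs in the germ cells of every library. At least 3 UMIs over all germ cells, the limit that a count of 0 allows, were reached by 30 genes in the male, 22 in the unsexed and 1 in the female library. Of these, 19 reached it in both the male and the unsexed library, 11 in the male but not the unsexed, and 3 in the unsexed but not the male. The 3 were Su(Ste):CR42416 with 11, Su(Ste):CR42422 with 5 and CG46191 with 3 unsexed germ UMIs. In a deeper count table of the male library, described below, these genes had 7, 8 and 1 germ-cell UMIs in that order. The split between the libraries therefore changes with male depth. The counts of genes that reach the limit rest on 35027439 male, 52792574 unsexed and 20610959 female germ-cell UMIs of all genes. The share of all genes that reach the limit is not given here, so nothing about the members is read from the counts. The 15 genes with at least 10 UMIs in a class of cells of any library held 87.4% of the male and 82.0% of the unsexed germ-cell Y-linked UMIs. The other 98 genes held between 0 and 9 UMIs each, and together 89 in male, 69 in unsexed and 2 in female germ cells.

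The 12 single-copy protein-coding genes held 307 UMIs in male germ cells (8.76 CPM, 7.81 to 9.80), 116 in unsexed germ cells (2.20 CPM, 1.82 to 2.64) and 7 in female germ cells (0.340 CPM, 0.137 to 0.700). These were 43.5% of the Y-linked UMIs in the male, 30.3% in the unsexed and 77.8% in the female germ cells. Nearly all of the male and unsexed counts came from FDY, kl-3 and kl-2.

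The dynein heavy chain gene kl-3 (FBgn0267432, Y:336381-563165, plus strand) spans 226785 bases of which 13882 are exonic. It had 117 UMIs in male germ cells (3.34 CPM, 2.76 to 4.003), 46 in unsexed germ cells (0.871 CPM, 0.638 to 1.16) and 1 in female germ cells (0.0485 CPM, 0.00123 to 0.270). The male level was 3.83 times the unsexed level (2.70 to 5.52), and the male and unsexed intervals do not overlap. The kl-3 UMIs lay in 114 male and 44 unsexed germ cells, with at most 2 in a cell. The annotation has CR45947 on the opposite strand within its span, and how the counting treated strand is not given in the sources used here.

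The neighbouring dynein heavy chain gene kl-2 (FBgn0001313, Y:573088-664173, plus strand) showed the opposite order between these libraries. It had 10 UMIs in male germ cells (0.285 CPM, 0.137 to 0.525), 43 in unsexed germ cells (0.815 CPM, 0.589 to 1.10) and 0 in female germ cells. The male level was 0.351 of the unsexed level (0.157 to 0.708). The third dynein gene, kl-5, had 5 male, 1 unsexed and 1 female germ-cell UMIs, too few for a comparison.

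FDY (FBgn0265047, Y:3022289-3024024, plus strand) is a Y-linked copy of the autosomal gene vig2. It had 159 UMIs in male germ cells (4.54 CPM, 3.86 to 5.30), 21 in unsexed germ cells (0.398 CPM, 0.246 to 0.608) and 5 in female germ cells (0.243 CPM, 0.0788 to 0.566). It thus took 5 of the 9 Y-linked UMIs of the female germ cells, and in the other cells of that library it took 8 of 13. The male level was 18.7 times the female level (7.85 to 58.4). The unsexed level was 1.64 times the female level (0.602 to 5.57), so FDY was not distinguishable from background in the unsexed library at this depth. The parent gene vig2 stood at 790 CPM in male, 458 CPM in unsexed and 595 CPM in female germ cells, and the part of reads shared between the copies was not tested. Without FDY the summed level was 80.3 times higher in male than in female germ cells (31.2 to 296).

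The other single-copy genes were near the limit. ORY, which encodes a coiled-coil protein, had 6 male and 1 unsexed germ-cell UMIs. ARY had 3 male and 1 unsexed, WDY 3 male and 3 unsexed, Ppr-Y 3 male and 0 unsexed, and CCY 1 male and 0 unsexed. PRY and the protein phosphatase genes Pp1-Y1 and Pp1-Y2 had 0 in the germ cells of every library. The 5 Mst77Y genes, copies of a gene for a sperm chromatin protein, also had 0 in the germ cells of every library.

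The 27 Su(Ste) genes on the Y held levels in male and unsexed germ cells whose intervals overlap, a result that depends on which copies are placed on the Y. They had 103 UMIs in male germ cells (2.94 CPM, 2.40 to 3.57), 137 in unsexed germ cells (2.60 CPM, 2.18 to 3.07) and 0 of 20610959 UMIs in female germ cells. The unsexed level was 0.883 of the male level, with an interval of 0.678 to 1.15 that includes 1. The file's chromosome names for unplaced scaffolds are rounded, and whether the 7 further Su(Ste) genes there belong to the Y is not known; with them added the unsexed level was 0.295 of the male level (0.268 to 0.326). Those on the Y made up 14.6% of the Y-linked UMIs in the male and 35.8% in the unsexed germ cells. Against the floor of 3 counts, the level was at least 20.2 times higher in male and at least 17.8 times higher in unsexed than in female germ cells.

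Su(Ste):CR42414 (Y:1029772-1031619) had 28 UMIs in male (0.799 CPM), 40 in unsexed (0.758 CPM) and 0 in female germ cells. Su(Ste):CR42410 (Y:1016352-1017835) had 20 in male, 22 in unsexed and 0 in female germ cells, and Su(Ste):CR42430 (Y:916438-917820) had 14 in male, 16 in unsexed and 0 in female germ cells. Su(Ste):CR42416 (Y:1035827-1036823) had 2 in male, 11 in unsexed and 0 in female germ cells. Intervals of the male and unsexed levels overlap for each of these 4 genes. The copies are near-identical repeats, so the division of UMIs among them is uncertain. Of the 27, 24 lie within Y:869892-1040412, and that stretch alone held 99 male, 133 unsexed and 0 female germ-cell UMIs.

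The 61 pseudogenes held 229 UMIs in male germ cells (6.538 CPM, 5.72 to 7.44), 100 in unsexed germ cells (1.89 CPM, 1.54 to 2.30) and 2 in female germ cells (0.0970 CPM, 0.0118 to 0.351). The unsexed level was 0.290 of the male level (0.227 to 0.368). Their counts lay mainly in 3 genes of 1 region, Y:3022289-3376984, which also holds FDY and 57 pseudogenes among its 69 members. That region held 401 male, 124 unsexed and 7 female germ-cell UMIs.

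CR46188 (FBgn0267900, Y:3236012-3237041, minus strand) had 56 UMIs in male germ cells (1.60 CPM, 1.21 to 2.08), 28 in unsexed germ cells (0.530 CPM, 0.352 to 0.767) and 1 in female germ cells. CR46150 (FBgn0267862, Y:3258406-3259223, plus strand) had 54 in male germ cells (1.54 CPM, 1.16 to 2.01), 16 in unsexed germ cells (0.303 CPM, 0.173 to 0.492) and 0 in female germ cells. CR41509 (FBgn0085792, Y:3041350-3042787, minus strand) had 53 in male germ cells (1.51 CPM, 1.13 to 1.98), 36 in unsexed germ cells (0.682 CPM, 0.478 to 0.944) and 0 in female germ cells. For each of the 3 the male interval lay above the unsexed interval. Pseudogenes resemble other genes in sequence, so how UMIs were divided between them and their relatives is uncertain.

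The smaller pseudogene counts ran the same way. CR40801 had 15 male and 3 unsexed, CR46160 13 male and 4 unsexed, and CR46279 10 male and 1 unsexed germ-cell UMIs, with 0 in female germ cells for each. The protein-coding gene CG46192 (Y:3252956-3253357) had 12 in male germ cells and 0 in unsexed and female germ cells, and its male level was at least 6.03 times higher than the unsexed floor. The non-coding RNA lncRNA:CR40629 (FBgn0085505, Y:1122988-1123872, plus strand) had 53 UMIs in male germ cells (1.51 CPM, 1.13 to 1.98), 27 in unsexed germ cells (0.511 CPM, 0.337 to 0.744) and 0 in female germ cells. Its male level was 2.96 times the unsexed level (1.83 to 4.89).

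**Figure D2:**
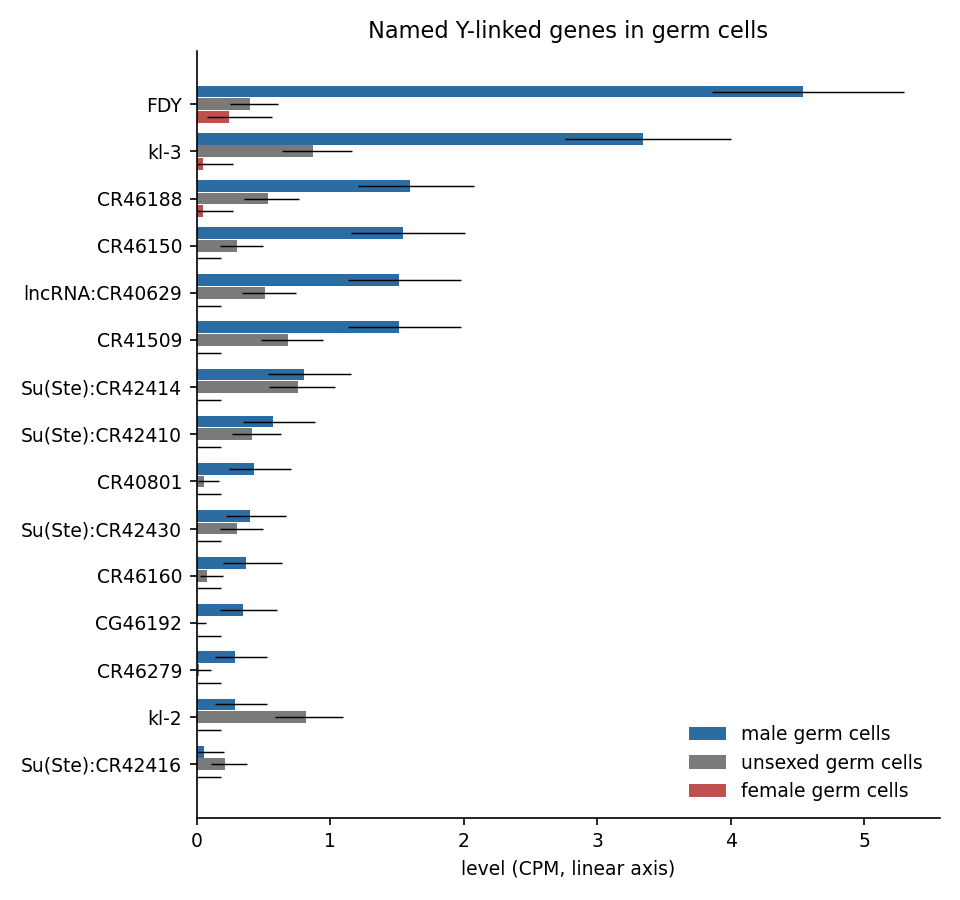
Bars give the level (CPM, linear axis) of the 15 named Y-linked genes in male, unsexed and female germ cells, and lines are exact 95% Poisson intervals. FDY, kl-3 and the 3 pseudogenes CR46188, CR46150 and CR41509 stand higher in male than in unsexed germ cells, the 4 Su(Ste) genes overlap between those libraries, and kl-2 stands lower in male than in unsexed germ cells.

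Across all genes with at least 20 UMIs over the male and female germ cells, 2.1% were at least 2-fold higher and 4.14% at least 2-fold lower in the male library. Of the 113 Y-linked genes 8 met that filter and 8 were higher and 0 lower. Each passed it through its male counts, which favours a call, so the count supports nothing by itself. Between unsexed and female germ cells 7.22% of genes were at least 2-fold higher, as were 7 of the 8 Y-linked genes that met the filter, all but FDY. All 8 passed through their unsexed counts, which favours a call, so this count supports nothing either.

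Within the male library, the Y-linked level was higher in germ cells than in other cells. Male cells outside the germ rule held 56 UMIs (6.51 CPM, 4.92 to 8.46), and the germ-cell level was 3.09 times theirs (2.35 to 4.13). Most of that remainder came from cells with UMIs of 1 or 2 of the 7 germ genes. Those 731 cells held 49 Y-linked UMIs (12.4 CPM, 9.17 to 16.4), whereas the 1221 male cells with none held 7 (1.51 CPM, 0.606 to 3.11). Against cells with none of the 7, the male germ-cell level was 13.4 times higher (6.45 to 33.3).

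The male level by number of germ genes seen, from 0 to 7, was 1.51, 7.39, 15.9, 17.4, 20.01, 18.7, 25.7 and 24.6 CPM. Median depth in those 8 groups of cells ranged from 3250.0 to 9769 UMIs, so cells with fewer germ genes seen were also shallower, and the part of missed germ genes in the middle groups was not tested. The 6500 female cells with none of the 7 germ genes held 9 Y-linked UMIs, or 0.176 CPM (0.0803 to 0.334). The male cells with none were above that background, from 7 UMIs (0.606 to 3.11 CPM). The part of missed germ genes in these male cells was not tested either. Unsexed cells outside the rule held 2 Y-linked UMIs in 459 cells (0.914 CPM, 0.111 to 3.30). In the female library the germ cells were not distinguishable from the other cells, with a ratio of 2.44 (0.921 to 6.17).

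**Figure D3:**
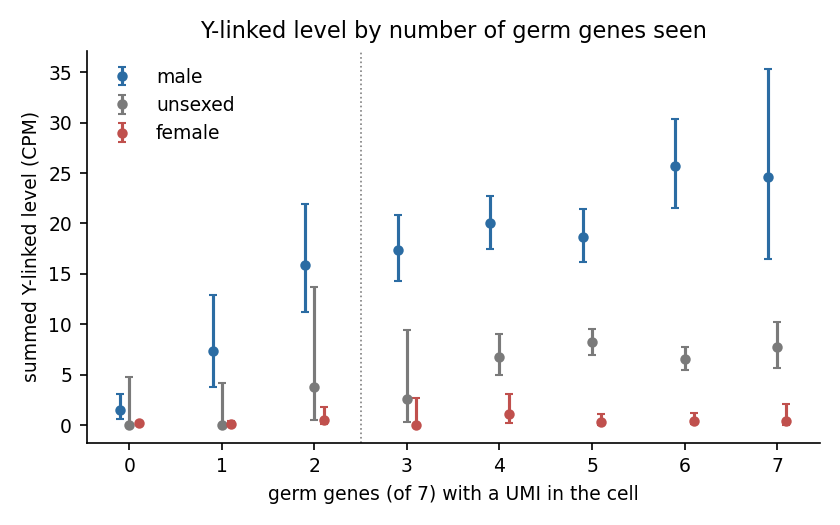
Points give the summed Y-linked level (CPM, linear axis) of cells grouped by how many of the 7 germ genes had a UMI, in the male, unsexed and female libraries, and error bars are exact 95% Poisson intervals. The male level is 1.51 CPM in cells with none and 15.9 CPM or more from 2 germ genes on, while the female level stays near 0.

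Gene by gene, the male other cells held 17 UMIs of FDY (1.98 CPM), 6 of kl-3 (0.698 CPM), 5 of CR41509 (0.582 CPM) and 4 each of CR46188, CR46150 and lncRNA:CR40629 (0.465 CPM). The germ-cell level was 4.79 times higher for kl-3 (2.13 to 13.3) and 2.30 times higher for FDY (1.39 to 4.04). In the male cells with none of the 7 germ genes, FDY had 3 UMIs and kl-3 had 0. In this comparison 21.1% of all genes were at least 2-fold higher in germ cells, as were 7 of the 8 Y-linked genes that met the count filter. All 8 met it through their germ-cell counts, so nothing is read from that number. Su(Ste):CR42410, the 1 not called, had 20 UMIs in germ cells and 0 in other cells. Markers of other cell types were lower in the germ cells: 8 neural markers summed to 92.6 CPM in male germ cells and 1108 CPM in the other male cells, and 7 mesoderm and muscle markers to 255 CPM in male germ cells and 439 CPM in the other male cells.

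Germ cells were then divided by their own pgc level, a marker of early germ cells, into 4 classes. Cells with no pgc UMI numbered 1037 in the unsexed library, those above 0 and under 300 CPM 838, those from 300 to under 2000 CPM 732, and those at 2000 CPM and over 591. Whether a cell has no pgc UMI, called without pgc here, also depends on its depth. Median depth of cells without pgc was 17201 UMIs in unsexed and 7955 in male germ cells, so the classes are not matched between libraries. In unsexed germ cells the Y-linked level ran from low to high pgc as 8.11 CPM (6.83 to 9.57), 8.42 CPM (6.99 to 10.1), 7.15 CPM (5.67 to 8.90) and 4.16 CPM (2.99 to 5.64). The lowest level lay in the cells with most pgc, and the first 3 classes overlap.

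The unsexed cells without pgc stood 1.95 times above those with 2000 CPM and over (1.37 to 2.83), and 1.13 times above those from 300 to under 2000 CPM (0.857 to 1.51). The share of cells with a Y-linked UMI was 11.5% without pgc and 6.26% at 2000 CPM and over, at median depths of 17201 and 16475 UMIs per cell. With every cell thinned to 2000 UMIs in 1 random draw, the ratio was 1.25 (0.401 to 4.60) from 11 UMIs without pgc and 5 at 2000 CPM and over, an interval that includes 1. The class with most pgc stood above the female background over all germ cells, 0.437 CPM, but the female cells of that class held 1 UMI in 17 cells (4.69 CPM, 0.119 to 26.1), so no background at matched pgc could be set. Across all genes, 25.1% were at least 2-fold higher in the cells without pgc, and only 1 Y-linked gene, CR41509, met the count filter. It had 17 UMIs without pgc and 3 at 2000 CPM and over, so it passed through the class where it is high, and its ratio of 3.21 has an interval (0.930 to 17.1) that includes 1. Several marker levels moved between the same classes. Without pgc and at 2000 CPM and over, the 8 neural markers summed to 51.4 and 26.8 CPM, and the 7 mesoderm and muscle markers to 214 and 138 CPM. In the same order of classes, 8 spermatogenesis genes summed to 81.5 and 9.13 CPM, with sa, comr, dj and Mst87F at 0 in both. Those 8 genes summed to 47.8 CPM in all unsexed germ cells and 205 CPM in the other unsexed cells, where 2 had UMIs. Their sum was also higher in other cells than in germ cells of both sexed libraries. In the same order, the 5 gut endoderm markers summed to 4.55 and 36.7 CPM. The 7 epidermis and trachea markers summed to 22.8 and 117 CPM. Haemocyte markers moved less, at 130 and 117 CPM, as did glia markers at 9.21 and 8.42 CPM. Gonadal mesoderm markers stood at 36.4 and 43.9 CPM. The part of these levels in the result was not tested.

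Values by family rest on few UMIs. Single-copy protein-coding genes stood at 2.65 CPM without pgc and 0.710 CPM at 2000 CPM and over, a ratio of 3.73 (1.67 to 9.79). FDY, not distinguishable from background in this library, supplied 15 of their 46 UMIs without pgc and 0 of their 7 at 2000 CPM and over. The family's ratio without FDY was not computed. With FDY left out, the ratio over all Y-linked genes was 1.74 (1.22 to 2.54), in place of 1.95. Pseudogenes stood at 2.36 CPM without pgc and 0.609 CPM at 2000 CPM and over, a ratio of 3.88 (1.64 to 11.2). Su(Ste) genes stood at 2.36 CPM without pgc and 2.44 CPM at 2000 CPM and over, a ratio of 0.969 (0.572 to 1.68) whose interval includes 1. They supplied 29.1% of the Y-linked UMIs in the unsexed cells without pgc and 58.5% in those with most pgc. Whether the families' ratios differ from one another was not tested, and with 7 Su(Ste) genes of unplaced scaffolds added the Su(Ste) ratio was 2.07 (1.57 to 2.76).

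In male germ cells the class with most pgc also had the lowest value, but its interval overlaps those of the others. Their classes held 2664, 735, 852 and 126 cells from low to high pgc, and the Y-linked level was 18.7 CPM (16.9 to 20.6), 23.6 CPM (19.95 to 27.6), 22.2 CPM (18.7 to 26.3) and 14.4 CPM (6.88 to 26.4). The last class held 10 Y-linked UMIs, too few to set apart from the others. The cells without pgc stood at 1.30 times the level at 2000 CPM and over (0.702 to 2.74), and at 0.841 of the level from 300 to under 2000 CPM (0.691 to 1.03). Both intervals include 1, and whether the male and unsexed ratios differ was not tested. Female germ cells held 4, 3, 1 and 1 Y-linked UMIs in the same classes.

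**Figure D4:**
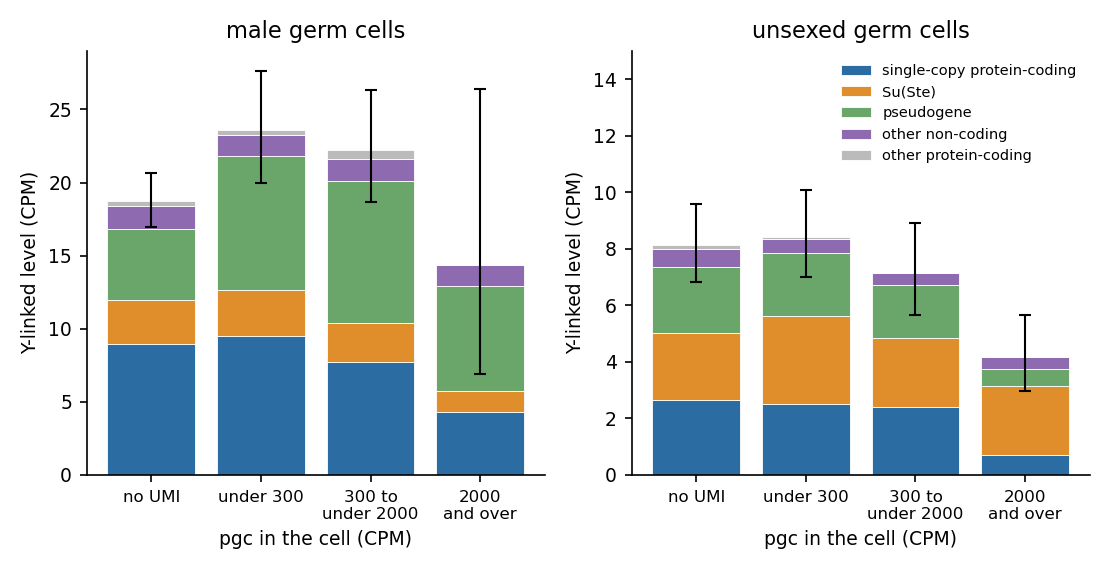
Stacked bars give the Y-linked level (CPM, linear axes of different range) by family in 4 classes of pgc level, for male germ cells on the left and unsexed germ cells on the right, and error bars are exact 95% Poisson intervals of the sum. The unsexed sum is lowest at 2000 CPM pgc and over (4.16 CPM), where Su(Ste) genes hold 58.5% of it, and the male classes overlap.

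By gene, CR46188 is described first in male germ cells and was singled out after its values were seen. Its male level from low to high pgc was 0.595, 2.34, 4.12 and 4.31 CPM, from 13, 15, 25 and 3 UMIs. It was therefore lower in male cells without pgc than in those from 300 to under 2000 CPM, at a ratio of 0.144 (0.0678 to 0.293). In that comparison 3.11% of all genes were at least 2-fold lower and 5.28% at least 2-fold higher. Of 7 Y-linked genes tested, 1 was lower, CR46188, and 0 were higher. In the unsexed library CR46188 had 8, 10, 10 and 0 UMIs from low to high pgc, with a ratio of 0.515 (0.177 to 1.45) between the same classes.

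The other genes followed other courses. In male germ cells FDY stood at 4.94, 4.68 and 3.46 CPM in the 3 lower classes, with 0 UMIs in the highest. Their kl-3 level was 3.20, 3.74, 3.30 and 4.31 CPM, the last from 3 UMIs, which is the floor. The ratio of cells without pgc to those from 300 to under 2000 CPM was 1.43 for FDY (0.889 to 2.40) and 0.972 for kl-3 (0.584 to 1.69). In the deeper male count table described below, FDY and kl-3 each had 2 UMIs (1.10 CPM) at 2000 CPM pgc and over. In unsexed germ cells FDY had 15, 5, 1 and 0 UMIs from low to high pgc, so its level without pgc was at least 2.84 times higher than the floor at 2000 CPM and over. In unsexed germ cells kl-3 had 15, 17, 12 and 2 UMIs from low to high pgc, and kl-2 had 12, 13, 13 and 5.

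**Figure D5:**
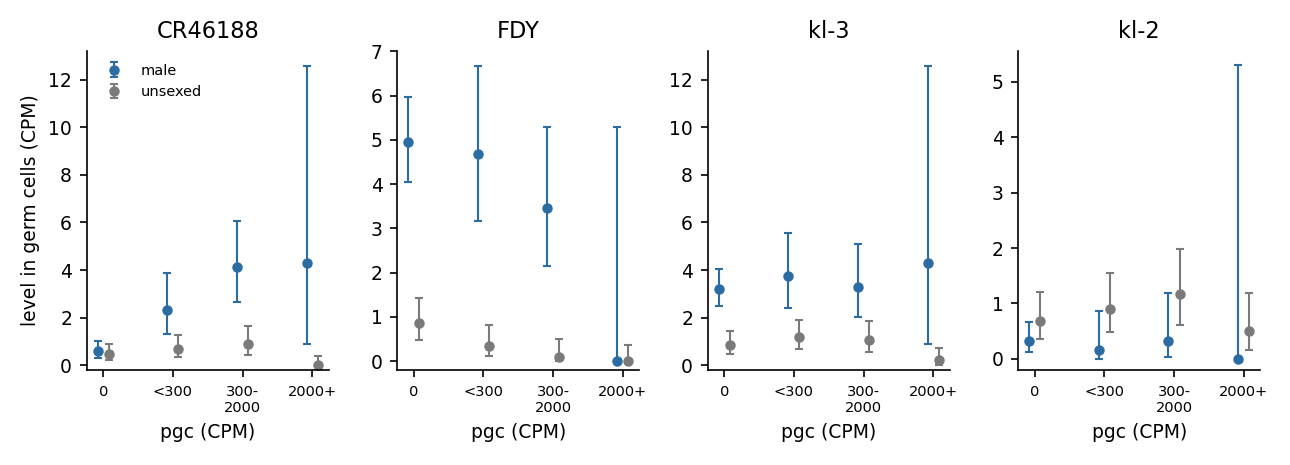
Points give the level (CPM, linear axes of different range) of CR46188, FDY, kl-3 and kl-2 by class of pgc level in male and unsexed germ cells, and error bars are exact 95% Poisson intervals. In male germ cells CR46188 is 0.595 CPM without pgc and 4.12 CPM from 300 to under 2000 CPM, whereas kl-3 overlaps between all 4 classes.

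The deeper dense count tables deposited for the male and female libraries give a second reading of mostly the same cells, not an independent sample. With the germ rule applied to them, male germ cells held 1976 Y-linked UMIs in 4855 cells (20.8 CPM, 19.9 to 21.7) and female germ cells 12 (0.486 CPM, 0.251 to 0.848). The share of cells with a Y-linked UMI was 31.1% in the male germ cells of that table. There 40 of the 113 genes reached 3 UMIs, the 30 of the matrix and 10 more. Male germ cells held 95073397 UMIs of all genes in the dense table and 35027439 in the matrix. The share of all genes that reach the limit there is not given, so nothing about the members is read from the 40. The pgc classes also differ at that depth, with 2535 male germ cells without pgc in the dense table and 2664 in the matrix. In the dense table CR46188 had a ratio of 0.139 (0.0822 to 0.228) between male germ cells without pgc and those from 300 to under 2000 CPM. There the ratio was 0.278 for CG46192 (0.0859 to 0.879) and 0.505 for Su(Ste):CR42410 (0.266 to 0.988), while CR46150 stood at 0.664 (0.438 to 1.02). These were picked from the 15 named genes after values were seen. In the matrix the ratio was 0.417 for CG46192 (0.0988 to 2.01) and 1.11 for Su(Ste):CR42410 (0.300 to 6.13). Both matrix intervals include 1, so the lower levels of these genes rest on the dense table alone. Male cells outside the rule stood lower there, at 2.61 CPM (1.86 to 3.57).

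The Stellate genes, which Su(Ste) RNAs silence, and other relatives of the Y-linked genes were read beside them. Of the Stellate list, 1 gene held nearly all UMIs: SteXh:CG42398, on an unplaced scaffold, stood at 23.0 CPM in male, 16.8 CPM in unsexed and 45.9 CPM in female germ cells. The rest of the 14 listed genes, all on the X, had 0 UMIs in the germ cells of every library. How reads that match several copies were counted is not given in the sources used here. The absence of UMIs therefore does not show that these genes are silent. Among relatives of the dyneins, Dhc64C, the cytoplasmic dynein heavy chain, stood at 16.4 CPM in male, 4.74 CPM in unsexed and 16.4 CPM in female germ cells, and Dhc36C, Dhc62B and Dhc93AB held between 15 and 52 UMIs in male germ cells. CkIIbeta, which encodes the casein kinase subunit that Stellate resembles, stood at 221 CPM in male, 206 CPM in unsexed and 286 CPM in female germ cells. The related genes CkIIbeta2, vig, Pp1-13C, Pp1alpha-96A, Pp1-87B, flw and CG12717 held between 172 and 21260.0 UMIs in male germ cells, and Ssl, btv and Dhc16F held fewer than 10. Mst77F, the autosomal relative of the Mst77Y genes, had 0 UMIs in every class of cells.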

How the data were processed

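The authors deposited, for each library, a matrix of UMI counts per gene and cell and a dense table. Counts of the dense tables were read for the male and female libraries. From the unsexed dense table only the gene identifiers and chromosomes were read. Cell Ranger and the genome build BDGP6 are named in the submitters' processing notes, and the matrices were written by 10x software 3.0.1 or 3.1.0, per the file headers. The counts were used as deposited. Gene positions were read from Ensembl 115 (BDGP6.54), where all 113 genes were found. How reads that match several copies and how strand were treated is not given in the sources used here.

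Cells were kept that had at least 1000 UMIs, at least 500 genes and a mitochondrial share of at most 20%. Mitochondrial genes held 1.79% of unsexed UMIs and 0 in the sexed libraries, where 38 are listed, so they were left out of the totals behind CPM. Scrublet (scanpy 1.11.5) gave each cell a doublet score. The threshold it set by itself called only 5 male cells (0.0748%) doublets, too few for a working caller, so the top 0.8% per 1000 cells were removed, which took out 358 male, 114 unsexed and 845 female cells.

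UMIs were summed over cells and scaled to CPM. Intervals (95%) are exact Poisson for sums, exact Clopper-Pearson for shares and exact conditional for ratios, from scipy 1.17.1. A count of 0 was set to a floor of 3 counts per group of cells. A gene was called at a 2-fold CPM ratio among genes with at least 20 UMIs over both groups. The fold calls were tested on simulated counts without variation between libraries, which checks the calculation and not any comparison made here. Named genes are those with at least 10 UMIs summed over the germ cells or over the other cells of any library.

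The genes, lists and rules were chosen with earlier results of these data known. The families, the 2 stretches of the Y, the comparison with cells of 300 to under 2000 CPM pgc, the reading of the dense tables gene by gene, and the 4 genes plotted by pgc class were chosen after values were seen. Alternatives included TMM scaling with edgeR 4.0.16, other germ-cell rules, other filters and thinning to 2000 UMIs per cell.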

Additional observations from a re-analysis of the deposited data

Results flagged for a closer look

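Su(Ste) genes outside the Y-linked list also gave a signal that was higher in the male library. The 7 Su(Ste) genes placed on unplaced scaffolds rather than on the Y held 1222 UMIs in male germ cells (34.9 CPM, 33.0 to 36.9), 453 in unsexed germ cells (8.58 CPM, 7.81 to 9.41) and 24 in female germ cells (1.16 CPM, 0.746 to 1.73). Nearly all of it was Su(Ste):CR42418, at 34.3 CPM in male, 7.61 CPM in unsexed and 1.16 CPM in female germ cells. The male other cells stood at 10.0 CPM (8.00 to 12.4). Whether these scaffolds belong to the Y is not known, and the genes are outside the sums of the Y-linked genes. With them the Su(Ste) genes held 1325 UMIs in male (37.8 CPM) and 590.0 in unsexed germ cells (11.2 CPM). For comparison, the female germ-cell level of 1.16 CPM is the level measured in cells without a Y. The part of reads shared among Su(Ste) copies was not tested.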

How the results depend on the processing

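Of 103 alternative values, 76 stayed within the interval of the reported value, or within 1.5 times of a reported count, 27 moved outside it, and 0 of the values whose interval excludes 1 changed direction. The male germ-cell level over other cells (3.09) was 6.55 with at least 2 of the 7 germ genes, 1.85 with at least 4, 13.4 against cells with none, and 7.96 in the dense tables. The dense tables also gave a male share of 31.1% and 16 Y-linked genes at least 2-fold higher in male than in female germ cells, against 8. Y-linked genes pass the count filter there through their male counts, since female germ cells held 12 Y-linked UMIs in all. The share of all genes called there is not given, so nothing is read from the 16. Without FDY the level was 15.6 CPM in male and 0.194 CPM in female germ cells, and the share of cells 11.4% in male and 0.373% in female germ cells. At 1 UMI, 42 genes were detected in unsexed and 5 in female germ cells; at 10 UMIs, 14 in male, 11 in unsexed and 0 in female germ cells. With 1072 cells of 2000 UMIs per library, 5 genes were detected in male, 1 in unsexed and 0 in female germ cells. The share of all genes detected under each of these limits is not given, so nothing about the members is read from these numbers of genes. Thinning every cell to 2000 UMIs in 1 random draw, as planned, gave shares of 4.09% in male, 1.22% in unsexed and 0.0933% in female germ cells. It also gave a ratio of 1.25 (0.401 to 4.60) in place of 1.95 for unsexed cells without pgc over those at 2000 CPM and over, from 11 and 5 UMIs. A second draw gave 2.56 (0.844 to 10.4) from 18 and 4 UMIs, and the average over all draws gave 2.03, with shares of 3.86% in male, 1.39% in unsexed and 0.105% in female germ cells. The second draw and the average were added after the draws were seen to differ. Thinning leaves too few UMIs to settle this ratio, so its independence from depth was not shown. Adding the 7 Su(Ste) genes of unplaced scaffolds, chosen after their values were seen, gave Su(Ste) ratios of 0.295 for unsexed over male germ cells, in place of 0.883, and 2.07 for unsexed germ cells without pgc over those at 2000 CPM and over, in place of 0.969. No paired analysis was possible because each group has 1 library. Depth limits all genes with under 10 UMIs.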
